A study of Mus musculus with 24 samples.

Results

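DNA replication and mitosis genes were followed in cultured dendritic cells of mouse bone marrow origin. The set holds 49 named genes with a known place in the cell cycle: 27 act in DNA replication or in entry into S phase, and 22 act in mitosis. Each gene was read from the probes whose accession carries its symbol, and where several probes shared a symbol, the brightest on average stood for the gene. Of the 49 genes, 46 had at least 1 group whose 3 arrays were all well above background, and these were tested, among 20209 features tested in all. The exceptions were Ccne2, which was well above background on 0 arrays, Cenpf on 2 and Ttk on 5, so the counts below are over 46 genes.

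Bone marrow of C57BL/6 background was cultured for 9 days with human Flt3 ligand at 100 ng/ml, a growth factor under which plasmacytoid and conventional dendritic cells develop. The marrow came from wild type mice (WT), from Irf5-KO mice, which lack a transcription factor that acts downstream of Toll-like receptors, from Lyn-KO mice, which lack a Src-family tyrosine kinase, or from double knockouts (Lyn/Irf5-DKO, here DKO). For each genotype some cells stayed unstimulated and others were given CpG-B at 150 nM for 6 h, a synthetic DNA that Toll-like receptor 9 senses, and RNA was hybridised in 1 colour to Agilent arrays. This gave 8 groups of 3 arrays. The labels call the 3 a biological triplicate without saying whether they came from separate mice, so the p-values measure the spread between these samples. The labels name no Cre driver or cell type restriction for the knockouts.

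Before S phase, the helicase ring of MCM proteins is loaded onto DNA by Cdc6 and Cdt1, and it is then switched on with Cdc45 and the GINS complex. Transcription of these genes, and of those for nucleotide supply and the polymerases, is driven by E2F factors once cyclin-dependent kinases have inactivated the retinoblastoma family. Genes for mitosis peak later in the cycle and are controlled largely through CHR and CCAAT elements. Most differentiated dendritic cells divide little, and dividing precursors are a known part of cultures with Flt3 ligand.

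Signals are given as log2 values relative to the 75th percentile of the array, so that 0 is the signal at that percentile and a difference of 1 is a 2-fold difference. The share of spots well above background ran from 41.0% to 53.8% over the arrays, and 0 spots were saturated. All 5 general dendritic cell markers (Itgax, Zbtb46, H2-Aa, H2-Ab1 and Cd74) were well above background in every group. Lyn averaged 2.40 ± 0.07 (SD, n = 3) in WT with CpG-B against -0.06 ± 0.01 in Lyn-KO and -0.92 ± 0.02 in DKO, and 1.15 ± 0.21 in unstimulated WT against -0.67 ± 0.09 in Lyn-KO and -0.68 ± 0.14 in DKO. Irf5 averaged 4.90 ± 0.06 in unstimulated WT, 4.61 ± 0.05 in Irf5-KO and 4.72 ± 0.02 in DKO, and with CpG-B it was higher in the arrays labelled Irf5-KO (4.98 ± 0.24) and DKO (5.43 ± 0.12) than in WT (4.35 ± 0.11). The sources used here do not say whether the Irf5 probe lies in the deleted part, and so it cannot check the Irf5 labels.

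Markers of other cells differed between the genotypes. Of 14 B lineage markers tested, 11 were lower in unstimulated DKO than in WT and 11 in DKO with CpG-B (limma, adjusted p of 0.05), and their summed level ran from 6.328 to 6.717 in WT with CpG-B, from 4.798 to 4.903 in Lyn-KO and from 4.218 to 4.375 in DKO, on the log2 scale. Cd79a and Igll1 were not well above background on any DKO array with CpG-B, and Igll1 was not in WT either. Of 9 neutrophil markers tested, 8 were lower in DKO with CpG-B, with summed levels of 6.419 to 6.547 in WT and 4.655 to 6.012 in DKO, and the count was 5 without replicate 2 or replicate 3 of DKO with CpG-B. Of 6 monocyte and macrophage markers, 3 were higher in DKO with CpG-B. Of 10 myeloid progenitor markers, 1 was higher and 2 were lower, which became 1 without replicate 1 or 2 of WT or replicate 2 or 3 of DKO with CpG-B. Among dendritic cell markers in the same comparison, 5 of 7 of type 1 conventional cells were higher and 1 lower, 3 of 8 of type 2 conventional cells were higher and 2 lower, and 3 of the 5 general markers were higher. Of 10 plasmacytoid markers 5 were higher and 3 lower, and those higher were 3 without replicate 3 of WT or of DKO with CpG-B. In unstimulated cells the B lineage sum ran from 6.553 to 7.168 in WT and from 3.671 to 4.265 in DKO. It ran from 3.786 to 3.89 in Lyn-KO and from 7.19 to 7.532 in Irf5-KO. The low level was thus shared by DKO and Lyn-KO. With 1 array left out, 11 of the 14 markers were lower in unstimulated Lyn-KO than in WT. Of all features, 20.1% were lower and 24.4% higher in DKO than in WT with CpG-B. In lists this short, the counts of type 2 conventional and myeloid progenitor markers were not far from these shares. They are no result about those cells. The part of these cell types in the results below was not tested.

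In unstimulated cells the replication and mitosis genes were close between genotypes. DKO was lower than WT for 5 of 46 genes (3.3% of all features were lower and 3.37% higher), Lyn-KO for 6 (2.68% lower and 1.91% higher) and Irf5-KO for 2 (0.391% lower and 0.322% higher), and no gene was higher in any of the 3. These comparisons share the WT arrays. The 5 genes in DKO were E2f2, Cdk1, Plk1, Aurka and Cdc20, in Lyn-KO the same 5 and Mcm10, and in Irf5-KO Aurka and Cenpe. Aurka, a kinase of the spindle poles, read 2.70, 2.78 and 2.82 in unstimulated WT, 2.48, 2.47 and 2.46 in Irf5-KO, 2.48, 2.43 and 2.42 in Lyn-KO and 2.34, 2.23 and 2.39 in DKO. Every mutant array was below every WT array, and DKO was 1.36-fold lower than WT (log2 difference -0.45 ± 0.06 (SE), adjusted p = 4.56e-05, limma). Plk1, a kinase of mitotic entry and spindle assembly, was 1.40-fold lower in DKO (-0.49 ± 0.08, adjusted p = 0.000387, limma). In DKO, Plk1 and Aurka kept their call under all alternatives, whereas E2f2, Cdk1 and Cdc20 lost it under 5 or more. For Cdk1 another probe of the gene gave differences near 0 in unstimulated Lyn-KO and DKO. The medians over the 46 genes were -0.09 in DKO, -0.12 in Lyn-KO and -0.07 in Irf5-KO, against 0.01, 0.02 and -0.02 over all features. DKO was lower than Irf5-KO for E2f2 and Cdc25b, a count close to the share of all features (2.81% lower and 2.62% higher). Between DKO and Lyn-KO, 0 genes were called with limma (0.0792% of all features were lower and 0.094% higher), and 1 gene was at an unadjusted p below 0.05.

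The counts in unstimulated cells were small and moved with single arrays. The count of 5 in DKO was 3 without replicate 1, 2 or 3 of DKO or replicate 2 of WT, and 2 without replicate 3 of WT. That of 6 in Lyn-KO was 3 without replicate 2 or 3 of WT or replicate 3 of Lyn-KO. That of 2 in Irf5-KO was 1 without replicate 1 or 2 of WT, and 0 without replicate 3 of WT or without any 1 of the Irf5-KO replicates.

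**Figure D1:**
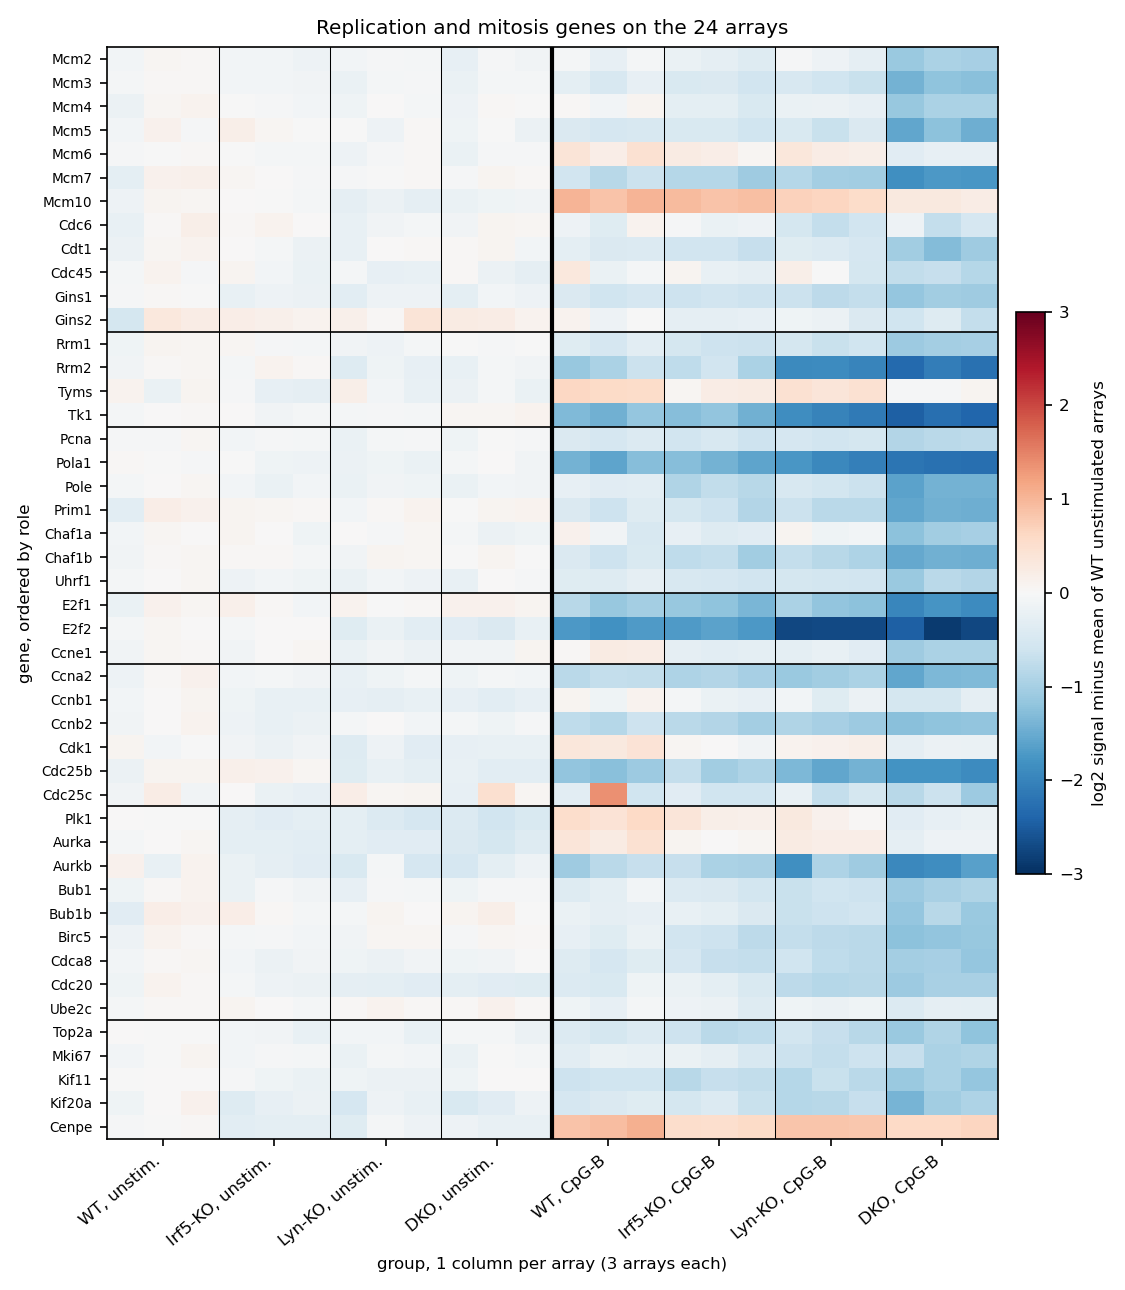
Heatmap of the 46 tested genes (rows, grouped by role) on all 24 arrays (columns, unstimulated groups first and then CpG-B, each by genotype), coloured by log2 signal minus the mean of the 3 unstimulated WT arrays of that gene. The unstimulated columns are mostly pale, most genes are blue (lower) with CpG-B and darkest in the DKO columns, and Mcm10 and Cenpe are red (higher) with CpG-B in all 4 genotypes.

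With CpG-B, most of the replication and mitosis genes fell in every genotype, and a small group rose. In WT, 28 of 46 genes were lower with CpG-B (36.7% of all features were lower) and 8 were higher (31.7%), with a median log2 difference of -0.33 against -0.02 for all features. In Irf5-KO, 34 were lower (35.3%) and 6 higher (31.5%), with a median of -0.41. In Lyn-KO, 32 were lower (36.3%) and 7 higher (32.5%), with a median of -0.50. In DKO, 39 were lower (36.1%) and 4 higher (34.3%), with a median of -0.97 against 0.01 for all features. Each genotype has its own arrays in these comparisons. Markers of other cells moved with CpG-B as well: 6 of 10 myeloid progenitor markers were lower with CpG-B in each genotype. Their summed log2 level in WT went from 6.107 to 6.152 unstimulated to 5.312 to 5.382. Some progenitor markers were higher instead. With 1 array left out, they numbered 1 to 2 in WT and in Lyn-KO, 1 in Irf5-KO and 2 to 3 in DKO. In WT, 7 of 9 neutrophil markers and 4 of 6 monocyte and macrophage markers were lower too, with 1 and 2 higher. In DKO, 2 of the monocyte and macrophage markers were lower and 4 higher. Their part in the fall of the cycle genes was not tested. In bulk RNA, fewer cycling cells and less of these RNAs in each cell cannot be told apart.

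The same 27 genes fell in all 4 genotypes. The share of all features that did so was not counted. It can be at most 35.3%, the share lower with CpG-B in Irf5-KO. E2f2, a transcription activator of S phase genes, read 4.31, 4.43 and 4.40 in unstimulated WT and 2.65, 2.56 and 2.69 with CpG-B, a 3.36-fold drop (log2 difference -1.75 ± 0.08, adjusted p = 6.94e-13, limma). Pola1, the catalytic subunit of the polymerase that starts new strands, was 2.68-fold lower (-1.42 ± 0.08, adjusted p = 1.72e-11, limma). Tk1, which salvages thymidine, went from 3.06, 3.13 and 3.13 to 1.78, 1.67 and 1.94, which was 2.48-fold lower. For all 3 genes the groups did not overlap. Cdc25b, a phosphatase that activates cyclin-dependent kinases at mitotic entry, fell 2.27-fold, and Mki67, the proliferation marker Ki-67, by 0.25 on the log2 scale.

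Mcm10, Plk1, Aurka and Cenpe rose in all 4 genotypes, likewise without a count over all features. That share can be at most 31.5%, the share higher with CpG-B in Irf5-KO. Whether such genes are rarer or more common here than among all features was not tested. Their number is thus no result about the set as a whole. Mcm10, which helps to activate the loaded helicase, read 2.16, 2.40 and 2.37 in unstimulated WT and 3.33, 3.17 and 3.34 with CpG-B, a 1.95-fold rise (0.97 ± 0.06, adjusted p = 1.11e-10, limma). Cenpe, a kinetochore motor, went from 3.53, 3.55 and 3.60 to 4.41, 4.48 and 4.62, a 1.92-fold rise. The arrays with CpG-B lay above all unstimulated arrays for both genes. In DKO, Plk1 rose by 0.23 on the log2 scale but lost its call under quantile normalisation, normexp, and without replicate 2 of unstimulated or replicate 3 of CpG-B DKO. Tyms, which makes thymidylate, rose in WT, Irf5-KO and Lyn-KO (1.49-fold in WT), as did Mcm6, although Mcm6 in Irf5-KO changed sign to -0.06 with quantile normalisation and to -0.07 with normexp (0.22 otherwise). Cdk1, the kinase of mitotic entry, rose in WT (1.27-fold) and in Lyn-KO. Cyclin E1 (Ccne1) rose in WT by 0.17, a call lost under 8 alternatives.

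**Figure D2:**
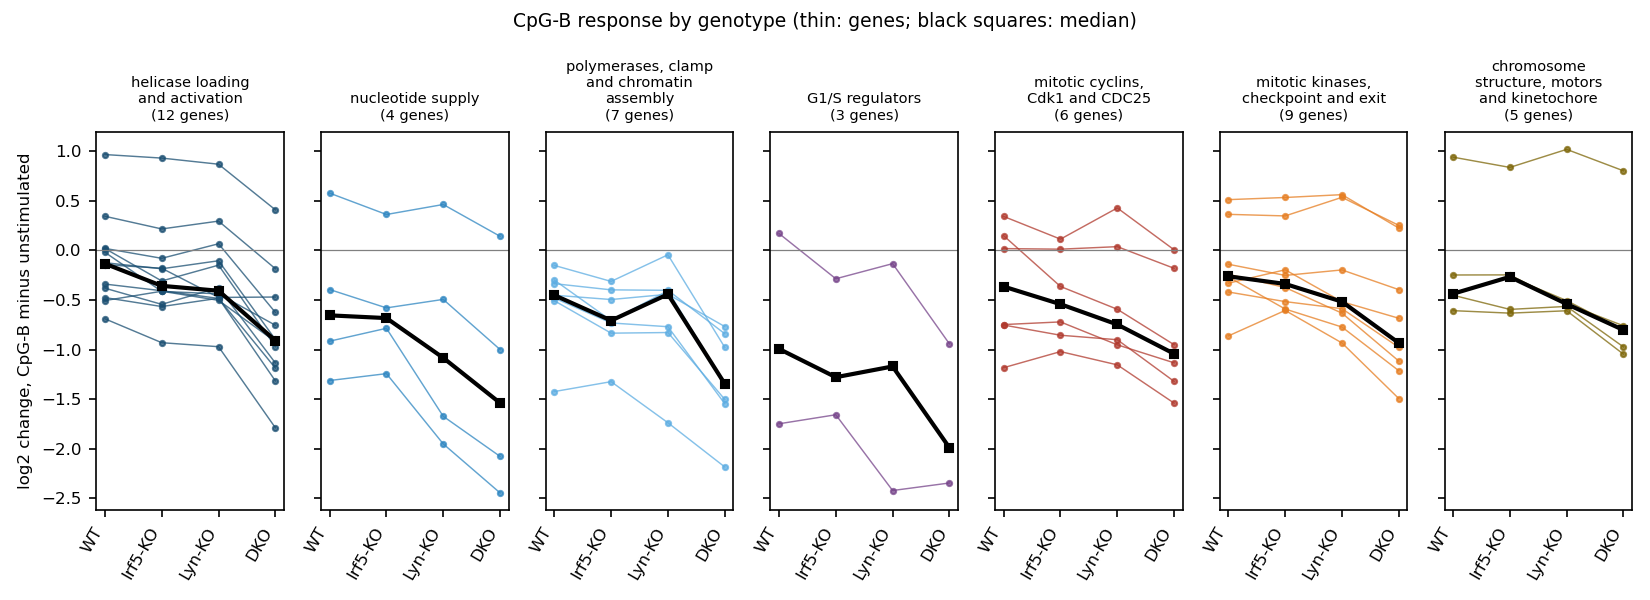
Log2 difference between CpG-B and unstimulated arrays (vertical axis) in WT, Irf5-KO, Lyn-KO and DKO (horizontal axis), in 1 panel per role group, with a thin line for each gene and black squares for the median of the group. In each panel the median in DKO is the lowest of the 4, from -0.80 for chromosome structure, motors and kinetochore to -1.99 for the G1/S regulators.

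With CpG-B, 45 of 46 genes were lower in DKO than in WT and none was higher (20.1% of all features were lower and 24.4% higher). For those 45 genes the 3 DKO arrays lay below the 3 WT arrays without overlap. These arrays are the ones behind the calls, so the separation adds no support to them. How often such separation held among all features was not counted. The median log2 difference was -0.72, against 0.05 for all features, and it was -0.74, -0.63 and -0.79 on the 3 slides taken separately. The differences of the 45 ran from -1.30 for Rrm2 to -0.18 for Ube2c. The 46th gene, Cdc6, had a difference of -0.31 (adjusted p = 0.0595, limma), while another probe of Cdc6 gave -1.24.

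Among the 12 genes of helicase loading and activation, 11 were lower in DKO with CpG-B (median -0.77). Mcm5, a subunit of the MCM ring, read 3.62, 3.54 and 3.57 in WT, 3.60, 3.59 and 3.46 in Irf5-KO, 3.59, 3.38 and 3.62 in Lyn-KO and 2.49, 2.81 and 2.58 in DKO. The single mutants overlapped WT, and the DKO arrays lay apart, 1.93-fold below WT (-0.95 ± 0.09, adjusted p = 5.44e-08, limma). The ring subunits Mcm7 and Mcm4 were 2.11-fold and 2.04-fold lower, Mcm2 was 1.86-fold lower (-0.90 ± 0.08, adjusted p = 1.65e-08, limma), and Mcm3 and Mcm6 differed by -0.95 and -0.62. The loading factor Cdt1 differed by -0.75, the helicase subunits Cdc45, Gins1 and Gins2 by -0.78, -0.58 and -0.55, and Mcm10 by -0.71.

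All 4 genes of nucleotide supply and all 7 of the polymerase, clamp and chromatin assembly group were lower in DKO with CpG-B (medians -0.84 and -0.94). Rrm2, the regulated subunit of ribonucleotide reductase, read 3.21, 3.41 and 3.72 in WT, 3.60, 3.80 and 3.42 in Irf5-KO, 2.45, 2.47 and 2.38 in Lyn-KO and 2.03, 2.30 and 2.12 in DKO. WT and Irf5-KO overlapped, Lyn-KO lay below both, and DKO was 2.45-fold below WT (-1.30 ± 0.11, adjusted p = 2.66e-08, limma). Its partner Rrm1 differed by -0.63, Tyms by -0.58, and Tk1 was 2.08-fold lower.

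Pole, the catalytic subunit of the leading-strand polymerase, read 2.69, 2.60 and 2.60 in WT, 2.02, 2.19 and 2.09 in Irf5-KO, 2.46, 2.37 and 2.28 in Lyn-KO and 1.33, 1.51 and 1.52 in DKO. The 4 genotypes formed separate ranges, with DKO 2.26-fold below WT (-1.18 ± 0.06, adjusted p = 5.22e-11, limma). Chaf1a, a subunit of the factor that places histones on new DNA, read 1.86, 1.65 and 1.27 in WT, 1.50, 1.36 and 1.41 in Irf5-KO, 1.83, 1.62 and 1.66 in Lyn-KO and 0.51, 0.69 and 0.75 in DKO. Both single mutants overlapped WT, and DKO was 1.93-fold below WT (-0.94 ± 0.11, adjusted p = 8.45e-07, limma). The primase subunit Prim1 was 2.01-fold lower, Chaf1b, Pola1 and Uhrf1, which carries methylation marks over to new DNA, differed by -0.97, -0.81 and -0.59, and the sliding clamp Pcna by -0.38.

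The 3 tested G1/S regulators were lower in DKO with CpG-B. E2f1 and E2f2 differed by -0.88 and -0.93. Ccne1, the cyclin that partners Cdk2 at the start of S phase, read 2.41, 2.62 and 2.61 in WT, 2.10, 2.06 and 2.09 in Irf5-KO, 2.07, 2.14 and 2.04 in Lyn-KO and 1.31, 1.43 and 1.43 in DKO, 2.23-fold below WT. The single mutants lay between WT and DKO without overlapping either. A dimmer probe of Ccne1 gave a smaller difference of -0.50 that was not called.

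All 20 tested mitosis genes were lower in DKO with CpG-B, with a median of -0.64 against -0.89 for the 26 replication genes. Birc5, the survivin subunit of the chromosomal passenger complex, read 5.26, 5.14 and 5.28 in WT, 4.93, 4.88 and 4.72 in Irf5-KO, 4.77, 4.72 and 4.69 in Lyn-KO and 4.26, 4.31 and 4.36 in DKO, 1.89-fold below WT (-0.92 ± 0.07, adjusted p = 2.85e-09, limma). WT lay highest and DKO lowest, with no overlap between them and the single mutants. Aurkb, the kinase of that complex, was called lower (adjusted p = 0.000418, limma). It was not well above background on any DKO array with CpG-B, so its fold there was not measured. With each DKO array set to its dimmest signal of any probe above background, the fold was 1.38. This is no sure minimum for Aurkb. In unstimulated Lyn-KO its probe read -2.32, -1.92 and -2.38 and was well above background on only 2 of 3 arrays. Cdca8, a further subunit of the complex, differed by -0.64.

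Cdk1 read 2.12, 2.09 and 2.19 in WT with CpG-B, 1.84, 1.80 and 1.68 in Irf5-KO, 1.90, 1.92 and 1.96 in Lyn-KO and 1.51, 1.60 and 1.59 in DKO. All mutant arrays lay below WT, and DKO was 1.48-fold lower (-0.56 ± 0.06, adjusted p = 3.98e-07, limma), close to its level in unstimulated DKO (1.53, 1.58 and 1.58). The mitotic cyclins Ccna2, Ccnb1 and Ccnb2 differed by -0.66, -0.47 and -0.46, and Cdc25b by -0.64. Cdc25c differed by -1.01 ± 0.33 (adjusted p = 0.0193, limma), but its WT arrays read -2.07, -0.36 and -2.35, and without WT replicate 2 the difference was -0.39 and not called.

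Among the other mitosis genes, the kinases Plk1, Aurka and Bub1 differed by -0.77, -0.56 and -0.73, the checkpoint protein Bub1b by -0.79, and Cdc20, which activates the ubiquitin ligase of mitotic exit, by -0.69. Top2a, which untangles sister DNAs, the chromosome coat protein Mki67 and the motors Kif11 and Kif20a differed by -0.62, -0.60, -0.47 and -0.68. Cenpe had one of the smaller differences (-0.33 ± 0.06, adjusted p = 0.000265, limma). Ube2c, the ubiquitin-conjugating enzyme of mitotic exit, was lower by 0.18 on the log2 scale, a call lost under 6 alternatives.

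**Figure D3:**
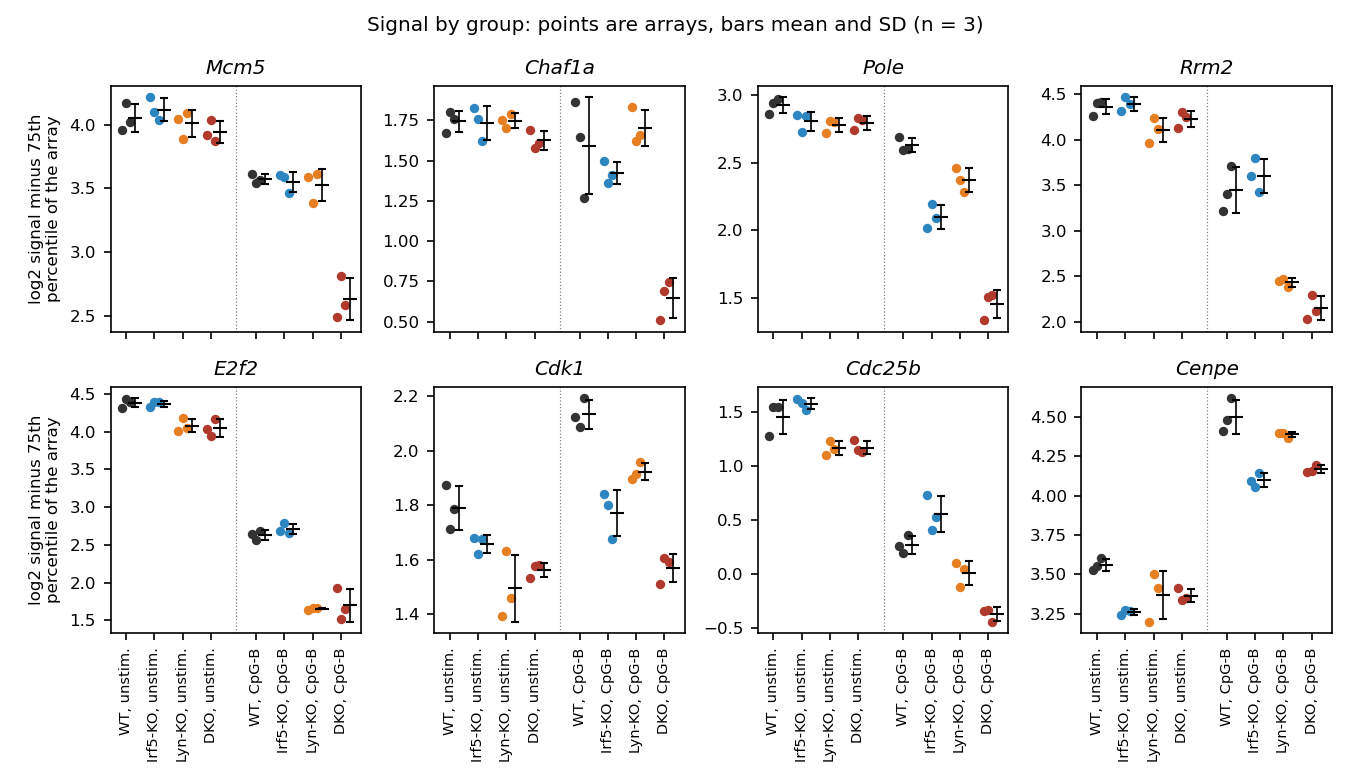
Log2 signal relative to the 75th percentile of the array for Mcm5, Chaf1a, Pole, Rrm2, E2f2, Cdk1, Cdc25b and Cenpe in the 8 groups, with a point for each array and the mean ± SD of 3. The DKO points with CpG-B are the lowest for Mcm5, Chaf1a and Pole, whereas for E2f2 the Lyn-KO and DKO points with CpG-B lie at the same height (means 1.66 and 1.70).

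The 250 bases before the start of each gene were searched for 3 short elements on both strands: TTCCCGC or TTGGCGC for E2F, TTTGAA or TTCGAA for CHR, and CCAAT. Of the 49 genes, 40 had an entry in the promoter table of RefSeq (GRCm38.p6). E2F letters were found in 13 of 40 (32.5%), CHR letters in 12 (30.0%) and CCAAT in 32 (80.0%), against 6.45%, 19.5% and 37.5% of all 27018 genes in the table. Among 22 replication genes 10 had E2F letters (45.5%) and 4 had CHR letters (18.2%). Among 18 mitosis genes 3 had E2F letters (16.7%), 8 had CHR letters (44.4%) and 17 had CCAAT (94.4%). A match is only a run of letters, not a shown binding site. The 150 bases before the start of 6 genes are printed from RefSeq (GRCm38.p6), 5′ to 3′ along the gene, with the matches of either strand in capitals. Mcm5, Chaf1a and Pola1 are shown for E2F letters in replication genes, Cdk1 and Kif11 for CHR letters in mitosis genes, and Ccnb2 for repeated CCAAT. Matches farther upstream fall outside the printed stretch, among them E2F letters 178 bases before the start of Cdk1 and CHR letters 167 bases before that of Ccnb2, and further E2F matches of Mcm5 and Pola1.
Mcm5 (chr8:75109359-75109508, plus strand, E2F and CCAAT): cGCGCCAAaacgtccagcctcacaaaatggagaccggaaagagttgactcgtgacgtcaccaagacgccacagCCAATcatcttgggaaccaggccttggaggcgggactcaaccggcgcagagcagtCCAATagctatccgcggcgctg
Chaf1a (chr17:56040266-56040415, plus strand, E2F and CCAAT): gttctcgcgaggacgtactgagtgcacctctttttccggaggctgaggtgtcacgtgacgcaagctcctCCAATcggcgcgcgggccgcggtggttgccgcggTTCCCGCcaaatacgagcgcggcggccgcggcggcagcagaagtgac
Pola1 (chrX:93632156-93632305, minus strand, E2F and CCAAT): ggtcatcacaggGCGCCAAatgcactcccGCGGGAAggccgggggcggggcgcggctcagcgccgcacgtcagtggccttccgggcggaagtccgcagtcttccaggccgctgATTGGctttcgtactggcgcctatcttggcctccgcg
Cdk1 (chr10:69352913-69353062, minus strand, CHR and CCAAT): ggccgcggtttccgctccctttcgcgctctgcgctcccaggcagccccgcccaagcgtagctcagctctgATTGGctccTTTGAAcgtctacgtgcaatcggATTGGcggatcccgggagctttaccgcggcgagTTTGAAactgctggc
Kif11 (chr19:37376232-37376381, plus strand, CHR and CCAAT): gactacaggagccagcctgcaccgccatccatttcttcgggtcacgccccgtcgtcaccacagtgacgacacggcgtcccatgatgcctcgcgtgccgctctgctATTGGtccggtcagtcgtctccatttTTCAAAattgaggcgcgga
Ccnb2 (chr9:70421555-70421704, minus strand, CCAAT): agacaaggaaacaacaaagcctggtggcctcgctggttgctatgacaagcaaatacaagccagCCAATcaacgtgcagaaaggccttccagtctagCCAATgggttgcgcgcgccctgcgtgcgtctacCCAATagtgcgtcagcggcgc

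The single mutants with CpG-B were compared with the same WT arrays. In Lyn-KO, 28 of 46 genes were lower and none was higher (11.7% of all features were lower and 12.8% higher), with a median of -0.25 against 0.04 for all features. In Irf5-KO, 13 were lower and 1 was higher (11.5% lower and 13.8% higher), with a median of -0.18 against 0.01. In the same comparison for Lyn-KO, 8 of 14 B lineage and 3 of 9 neutrophil markers were lower, and 6 of 10 plasmacytoid and 4 of 7 type 1 conventional dendritic cell markers were higher. In Irf5-KO, 6 of 10 plasmacytoid markers were lower and 4 of 6 monocyte and macrophage markers higher. The summed level of the type 1 conventional markers was 6.49 to 6.70 against 7.451 to 7.807 in WT. The single markers of that list were mixed: with 1 array left out, 1 to 3 of 7 were higher and 2 to 3 lower. Of 14 B lineage markers, 3 to 5 were higher and 0 to 1 lower with 1 array left out. The part of these cells was not tested. The count in Lyn-KO was 17 without replicate 3 of WT with CpG-B, and 14 with only the Lyn-KO and WT arrays in the fit, and that of 14 calls in Irf5-KO was 8 with only its own groups in the fit.

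In Lyn-KO the 3 called genes farthest from WT, Rrm2, E2f2 and Tk1, act in S phase or its control. Rrm2 was 2.02-fold below WT (-1.01 ± 0.11, adjusted p = 2.19e-06, limma) and Tk1 1.61-fold. E2f2 read 2.65, 2.56 and 2.69 in WT, 2.68, 2.78 and 2.66 in Irf5-KO, 1.64, 1.66 and 1.67 in Lyn-KO and 1.94, 1.52 and 1.65 in DKO. WT and Irf5-KO overlapped, as did Lyn-KO and DKO, and Lyn-KO was 1.96-fold below WT (-0.97 ± 0.08, adjusted p = 9.87e-08, limma). Birc5, Cdc20, Pola1 and Mki67 differed by -0.50, -0.49, -0.48 and -0.41, whereas Mcm2, Mcm5 and Cdt1 differed by -0.03, -0.05 and -0.05 and were not called.

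In Irf5-KO the lower genes included Pole (1.44-fold, -0.53 ± 0.06, adjusted p = 5.77e-06, limma), Ccne1 (-0.46), Tyms (-0.41), Cenpe (-0.40), Birc5 (-0.38), Cdk1 (-0.36) and Mcm4 (-0.36). Rrm2, Tk1 and E2f2 differed by 0.16, 0.01 and 0.08 and were not called. The single higher gene was Cdc25b (0.28, adjusted p = 0.0202, limma), which read 0.26, 0.20 and 0.36 in WT and 0.73, 0.41 and 0.53 in Irf5-KO, a call lost under 5 alternatives.

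DKO with CpG-B was also lower than each single mutant, for 40 genes against Irf5-KO (14.7% of all features were lower and 18.3% higher) and 39 against Lyn-KO (14% lower and 17.2% higher), with none higher in either and medians of -0.54 and -0.38. Mcm5 in DKO differed from Lyn-KO by -0.90 (adjusted p = 2.11e-07, limma) and Tk1 by -0.37 (adjusted p = 0.000948, limma). Rrm2 differed by -0.28 (adjusted p = 0.068, limma) and E2f2 by 0.04 (adjusted p = 0.78, limma), so DKO was not called apart from Lyn-KO for these 2 genes.

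**Figure D4:**
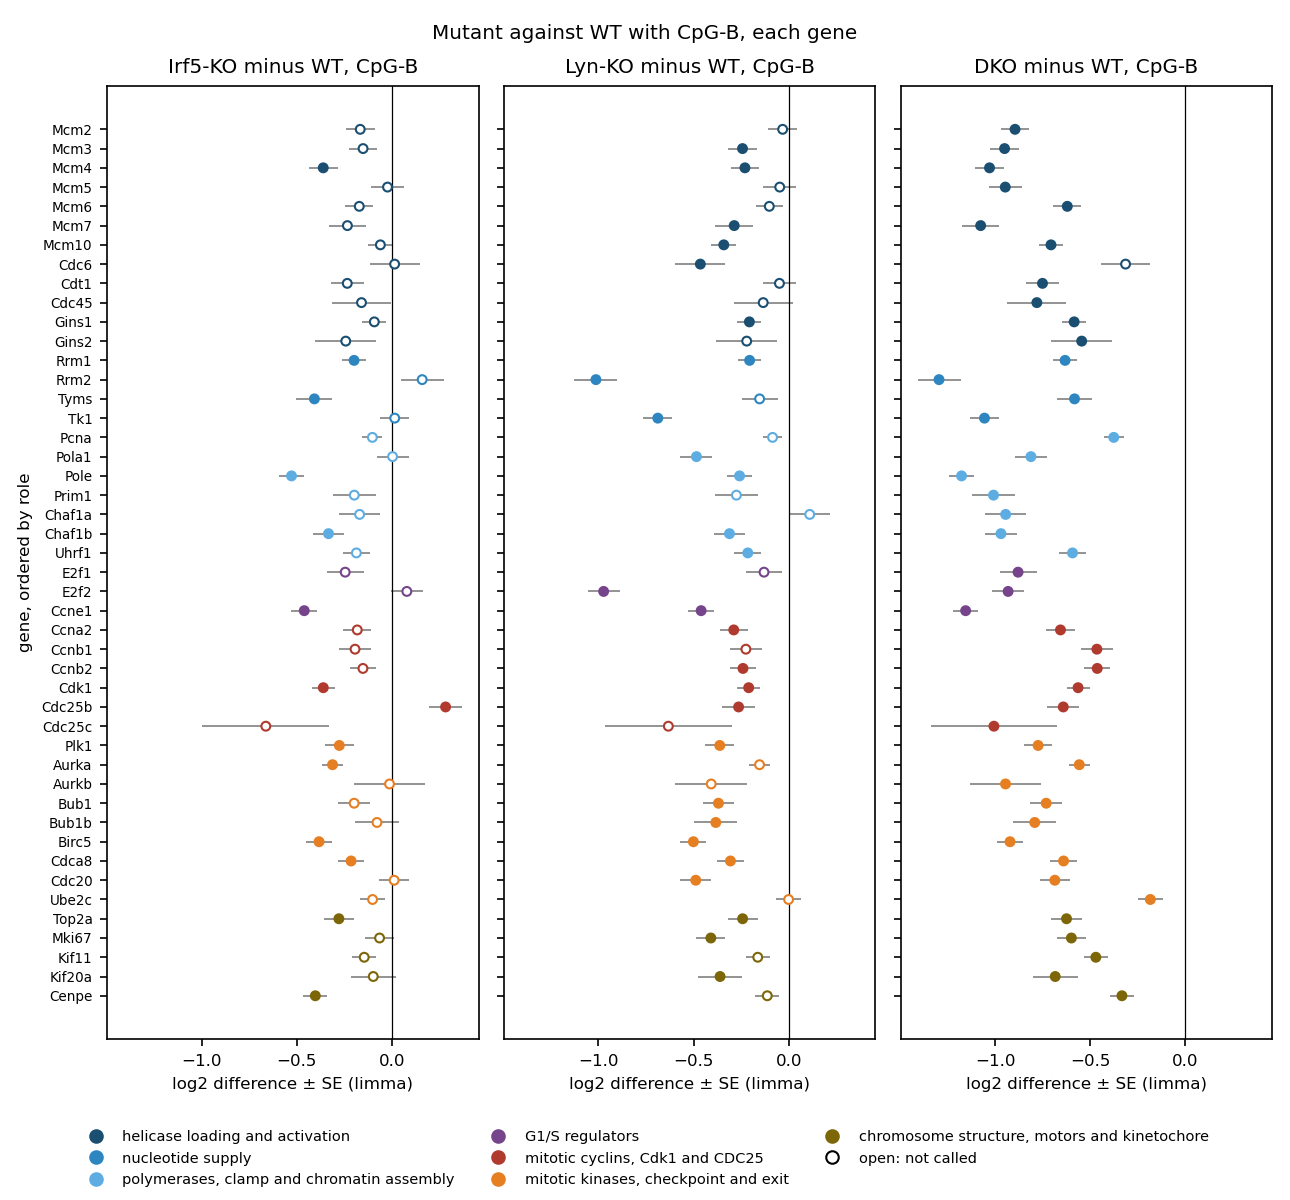
Log2 difference from WT with CpG-B for the 46 genes (rows, by role) in Irf5-KO, Lyn-KO and DKO (panels), with bars for the SE, filled points for called genes and open points for the rest. In the DKO panel 45 of 46 points are filled and all lie below 0, and in the Lyn-KO panel Rrm2 (-1.01), E2f2 (-0.97) and Tk1 (-0.69) stand farthest to the left.

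Whether loss of both genes lowered a gene by more than the sum of the single losses was tested as DKO minus Irf5-KO minus Lyn-KO plus WT on the log2 scale, a contrast added after values had been seen. With CpG-B it was below 0 for 10 of 46 genes (1.73% of all features, with 1.79% above 0) and above 0 for none, with a median of -0.23, and slide medians of -0.44, -0.25 and -0.05. The 10 genes were Mcm2, Mcm3, Mcm4, Mcm5, Mcm7, Cdt1, Pole, Chaf1a, E2f1 and Cdc25b, of which 9 act in replication. Mcm5 (-0.88 ± 0.12, adjusted p = 0.000503), Mcm2 (-0.70 ± 0.11, adjusted p = 0.00107) and Cdc25b (-0.66 ± 0.12, adjusted p = 0.00408, all limma) kept the call under all alternatives. Chaf1a (-0.89 ± 0.15, adjusted p = 0.00269, limma) and Mcm3 (-0.56) lost it with only the CpG-B groups in the fit, and the other 5 lost it under 7 or more alternatives. The count fell to 5 without replicate 2 of WT or of Irf5-KO with CpG-B, to 6 without replicate 1 of Irf5-KO, Lyn-KO or DKO with CpG-B, and to 3 with only the CpG-B groups in the fit. Rrm2, lowered by loss of Lyn alone, had -0.44 (adjusted p = 0.157, limma). In unstimulated cells the same contrast called 0 genes with limma (0.0297% of all features below 0 and 0.0445% above), and 6 were at an unadjusted p below 0.05.

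The CpG-B response itself differed between DKO and WT for 39 of 46 genes, all in the lower direction (13.8% of all features were lower and 16.2% higher), with a median of -0.60 against 0.04 for all features. The difference was below 0 for all 46 genes, from -1.16 for Rrm2 to -0.11 for Aurka. Tk1 (-1.13 ± 0.11, adjusted p = 2.17e-07), Ccne1 (-1.11 ± 0.09, adjusted p = 5.85e-08) and Mcm7 (-1.10 ± 0.14, adjusted p = 6.99e-06, all limma) followed Rrm2. Mcm7 read 4.71, 5.13 and 5.14 in unstimulated WT, and the low replicate 1 enlarges its difference. Tk1, for example, fell 2.48-fold in WT and 5.45-fold in DKO. Cenpe, which rose in both genotypes, differed by -0.14 (adjusted p = 0.28, limma). In Lyn-KO the response was lower than in WT for 5 genes, Rrm2, Tk1, E2f2, Ccne1 and Birc5 (5.26% of all features were lower and 5.39% higher), and in Irf5-KO for 3, Pole, Ccne1 and Birc5 (5.34% lower and 6.9% higher), with none higher in either. The count in Irf5-KO is close to the share of all features.

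Other genes of the cycle, in 5 lists that hold none of the 49 genes, were set beside them in DKO against WT with CpG-B, where 20.1% of all features were lower and 24.4% higher. Of 38 other replication genes 25 were lower and 1 was higher (median -0.44), of 53 other mitosis genes 42 were lower and 4 were higher (median -0.53), and of 23 genes of the S phase checkpoint and recombination 18 were lower and 1 was higher (median -0.68). The lower genes included Pole2, the partner of Pole (-1.19), Dut, which removes dUTP (-1.09), Cenpi of the kinetochore (-1.52), the phosphatase Cdc25a (-1.19), Cdca5, which holds sister chromatids together (-1.12), and Xrcc3 of recombination (-1.13). The higher genes included Orc4 of the origin recognition complex (1.02), the separase Espl1 (0.85), its inhibitor Pttg1 (0.32, a call lost with normexp) and Rbbp8, which acts at DNA ends (0.66).

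The G1 list of cyclins, their kinases and E2F, MYC or MYB factors was mixed, with 12 of 21 genes lower and 3 higher (median -0.30) against the same shares of all features. Mybl2, a MYB factor of the cell cycle, ranged from 2.862 to 3.040 in unstimulated WT, 4.491 to 4.627 in WT with CpG-B, 3.062 to 3.198 in Irf5-KO with CpG-B, 4.685 to 4.793 in Lyn-KO and 2.294 to 2.429 in DKO. CpG-B thus raised Mybl2 in WT (1.61 on the log2 scale), and DKO lay below all other groups with CpG-B (-2.24 ± 0.06 against WT, adjusted p = 1.38e-14, limma). Ccnd1, a cyclin of G1, went the other way, from 3.386 to 3.849 in WT with CpG-B and 5.348 to 5.477 in DKO (1.84 ± 0.11, adjusted p = 8.96e-11, limma). Mycl was also higher in DKO (1.65). Ccnd3 (-0.68), Myc (-0.55), E2f7 (-0.69), E2f4 (-0.30) and E2f6 (-0.23) were lower, while Ccnd2 (0.22), E2f5 (0.13), E2f3 (-0.16) and E2f8 (-0.25) were not called.

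Of 27 brakes of the cycle, 9 were lower in DKO with CpG-B and 6 higher (median -0.19), with 20.1% and 24.4% of all features lower and higher, so the count of higher brakes was close to that of features at large. Cdkn1a, which encodes the kinase inhibitor p21, ranged from 3.344 to 3.350 in WT with CpG-B, 4.434 to 4.581 in Irf5-KO, 3.712 to 4.041 in Lyn-KO and 5.370 to 5.496 in DKO. The 4 ranges did not overlap, and DKO was above WT by 2.08 ± 0.10 (adjusted p = 1.69e-11, limma), while in unstimulated cells its means ran only from 2.67 to 2.94. Btg2, an antiproliferative gene, was higher by 1.48, and the stress gene Gadd45g was lower by 2.49 on the log2 scale. Among the other kinase inhibitors, Cdkn2d (-0.56) and Cdkn2a (-0.88) were lower, and Cdkn1b (-0.03), Cdkn1c (-0.47), Cdkn2b (-0.38) and Cdkn2c (-0.26) were not called.

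**Figure D5:**
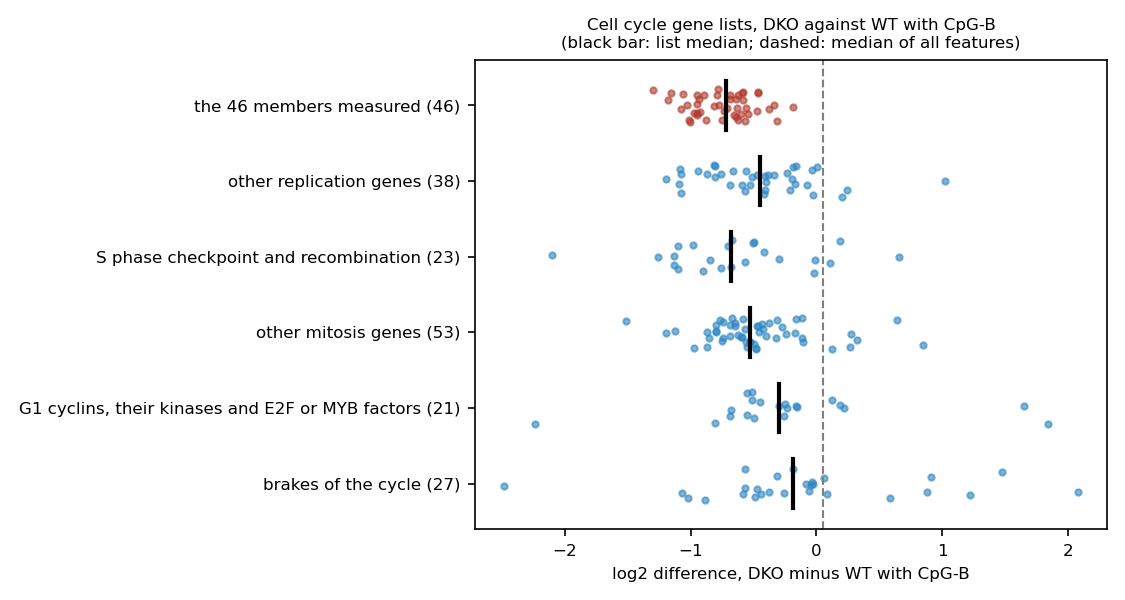
Log2 difference between DKO and WT with CpG-B (horizontal axis) for the genes of 6 lists (rows), with a point for each gene, a bar at the median of the list and a dashed line at the median of all features (0.05). The points of the 46 replication and mitosis genes all lie below 0, whereas the brakes of the cycle spread from -2.49 for Gadd45g to 2.08 for Cdkn1a. Fancd2, the leftmost point of the S phase checkpoint list, was not well above background on any DKO array with CpG-B, so its point is no measured fold.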

How the data were processed

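The authors deposited the scanner output of each of the 24 arrays, an intensity per spot read with Feature Extraction 10.7.3.1, with background subtracted, spatial trends removed and arrays left unscaled, per the file headers. They also deposited a series table of log2 values, which served as an alternative. Here the deposited intensity was taken to log2, 4351 spot values with a non-uniformity or outlier mark were dropped, the spots of each probe were averaged, and each array's 75th percentile was taken off. Differences between arrays lay within 0.00475 of those of the deposited log2 table for 95% of values. Its column medians ran from -0.273 to 0.375. Its scale and direction follow from this comparison, while its centring stays unknown and cancels in differences.

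Of 55681 probes, 26762 were named through the RefSeq gene list (GRCm38.p6), used for names only, since the files annotate another build (mm9). A probe was kept if some group had all 3 of its arrays well above background (26640 probes, 20209 features, 1 probe per named gene, 12648 named). The fit used limma 3.58.1 (R 4.3.3, with data.table in version 1.17.8) with 1 mean per group over the 8 groups, and calls were made at 0.05 after Benjamini-Hochberg adjustment over all features (2-sided). It was tested on simulated data. There were 17 contrasts, and 2 interaction contrasts were added after values had been seen. The number of arrays limits the precision.

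The 49 genes, the lists and the tests were chosen with earlier results of these data known. Named in the text were all 49 genes, Irf5 and Lyn, the cell type markers, up to 3 called genes with the largest change each way per list and contrast, and the kinase inhibitors, G1 cyclins and E2F genes whether called or not. Values named outside this rule (Myc) were chosen after being seen. Of the listed genes, Skp2, H2afx, Itgae, Ly6c2 and Trbc2 had no probe by symbol.

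The replicate number is the slide, per the file headers, and a slide (3 in all) carried 1 array from each group. A group had the same position on every slide, so position and group cannot be told apart. Residuals of arrays of a slide correlated from -0.084 to 0.293 (median 0.0549), and 25 of 84 pairs exceeded 0.1, so the number was not taken to pair the samples. Alternatives were quantile normalisation, normexp with an offset of 50 and quantile, scaling to the median of always-detected probes, leaving dim probes in, always-detected probes alone, each probe on its own, the series table, the slide as a block, a fit restricted to the groups compared, a trended robust prior, leaving out each array, and a window of 150 bases for promoters.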

Additional observations from a re-analysis of the deposited data

Results flagged for a closer look

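The results here stand out because an effect differed between genotypes by a test of the difference itself (limma, adjusted over all features). The CpG-B response was lower in DKO than in WT for 39 of 46 genes (13.8% of all features were lower). The difference of the log2 responses is given here for only some of the genes described above. It was -1.16 for Rrm2, -1.05 for Pole, -0.84 for Mcm5, -0.83 for Chaf1a and -0.77 for Mcm2. For E2f2, Cdc25b and Cdk1 it was -0.60, -0.36 and -0.34. Tk1, Ccne1 and Mcm7, whose values stand above, lay between Rrm2 and Pole. In Lyn-KO the response was lower than in WT for 5 genes (5.26% of all features), by differences of -0.76 for Rrm2, -0.67 for E2f2, -0.64 for Tk1, -0.51 for Birc5 and -0.30 for Ccne1. In Irf5-KO it was lower for 3 genes, close to the share among all features (5.34%) and so no result about this set as a whole, with -0.46 for Ccne1, -0.41 for Pole and -0.32 for Birc5. These 3 comparisons share the WT arrays. No pattern across them was tested.

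With CpG-B, the joint loss of Irf5 and Lyn differed from the sum of the single losses for 10 genes, all below 0 (1.73% of all features). The log2 values were -0.89 for Chaf1a, -0.88 for Mcm5, -0.70 for Mcm2, -0.66 for Cdc25b, -0.56 for Mcm3, -0.56 for Mcm7, -0.50 for E2f1, -0.47 for Cdt1, -0.44 for Mcm4 and -0.39 for Pole. The 3 WT arrays with CpG-B read 1.86, 1.65 and 1.27 for Chaf1a, a wider spread than in the other groups with CpG-B.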

How the results depend on the processing

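The 45 genes lower in DKO than in WT with CpG-B numbered 44 to 45 without any 1 array. The counts of genes called by CpG-B ran from 35 to 38 in WT, 37 to 40 in Irf5-KO, 38 to 39 in Lyn-KO and 40 to 43 in DKO, those of DKO with CpG-B from 38 to 40 against Irf5-KO and from 34 to 39 against Lyn-KO, and those of the response in DKO minus WT from 34 to 39. Without an array, the counts ran from 11 to 18 in Irf5-KO with CpG-B, 17 to 29 in Lyn-KO with CpG-B, 2 to 4 and 4 to 5 for the responses of Irf5-KO and Lyn-KO minus WT, and 5 to 14 for the interaction with CpG-B. In unstimulated cells they ran from 0 to 1 in Irf5-KO, 3 to 6 in Lyn-KO, 2 to 6 in DKO and 1 to 2 in DKO against Irf5-KO.

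With a fit restricted to the groups compared, which leaves fewer arrays, the counts were 8 in Irf5-KO and 14 in Lyn-KO with CpG-B, 3 for the interaction with CpG-B, and, unstimulated, 0 in Irf5-KO, 0 in Lyn-KO, 2 in DKO and 1 in DKO against Irf5-KO. Without a filter on dim probes, where more features share the adjustment, they were 18 in Lyn-KO with CpG-B, 5 for the interaction, and, unstimulated, 0 in Irf5-KO, 3 in Lyn-KO, 2 in DKO and 1 in DKO against Irf5-KO. Quantile normalisation and median scaling each gave 1 in unstimulated Irf5-KO, and normexp gave 8 in unstimulated DKO. For the response of Irf5-KO minus WT, quantile normalisation, normexp and median scaling each gave 5 and each probe on its own gave 1, and for Lyn-KO minus WT each probe on its own gave 3. The cause was not tested. Values changed sign for Mcm4 in WT with CpG-B (-0.17 with quantile normalisation), Mcm6 in Irf5-KO (-0.056 with quantile normalisation, -0.072 with normexp) and Cdc25c in WT (from -0.47 to 0.53 without any 1 array, the lowest without CpG-B replicate 2). With 150 bases in place of 250, E2F, CHR and CCAAT letters were found in 11, 8 and 31 genes.

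With the replicate number, which is the slide, as a block, the counts were 45 in DKO, 17 in Irf5-KO and 30 in Lyn-KO with CpG-B, 40 for the response of DKO minus WT, and 9 for the interaction with CpG-B. In unstimulated cells, the block gave 7 in DKO, 5 in Lyn-KO and 2 in Irf5-KO. No count moved by over 1.5 times, and of 874 gene results 2 lost and 13 gained a call.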
